A study of Pyronema omphalodes CBS 100304 with 9 samples.

Results

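The fungus Pyronema omphalodes, also called Pyronema confluens, has a pair of genes described as oxygenases that make oxylipins, and their transcript levels are described here. PCON_11932 is described as psi-producing oxygenase A and PCON_08404 as oleic acid lipoxygenase. They are 2 of the 13369 gene models counted. Both were chosen by their descriptions together with their read counts and group differences in these same libraries, so their levels and differences are given as a description, with no test. Tests are given for the genes around them, picked by position, and for the other models described as fatty acid oxygenases. They are also given for a list of genes of lipid metabolism and of regulators, picked by description as those models were. All these sets too were picked with earlier results of these data known.

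Oxylipins are oxidised fatty acids that fungi use as signals. In Aspergillus nidulans the psi-producing oxygenases turn oleic and linoleic acid into psi factors, which shift the balance between sexual and asexual spores. These enzymes join a haem peroxidase-like dioxygenase region, which adds oxygen to the fatty acid, to a cytochrome P450 region, which rearranges the product. Lipoxygenases are another kind of enzyme, without haem, that add oxygen to unsaturated fatty acids to give hydroperoxides. The products made by either Pyronema enzyme were not measured, and the names come from sequence similarity to proteins elsewhere.

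RNA was sequenced in 9 libraries of 4 groups. Protoapothecia, the young fruiting bodies, were sampled as 3 biological replicates, named A, B and C. These grew for 4 d at 25 °C on slides with 150 µl of WPC medium and 0.8% agar, were fixed in ethanol, cut out by laser microdissection, and their RNA was amplified linearly. The light given to these slides is not stated. The mycelium libraries came from an earlier study, 2 per group, with RNA extracted in bulk. Sexual mycelium came from surface cultures on WPC in constant light and vegetative mycelium from surface cultures on WPC in constant darkness, each with RNA of days 3, 4 and 5 pooled. The vegetative pool mixed RNA of 3 d cultures: submerged in WPC in light, submerged in WPC in darkness, and on the surface of BMM medium in darkness. Each library of mycelium is described as one technical replicate of a pair. The labels do not say that libraries 1 and 2 of a group are separate cultures, so p-values measure a spread that may be partly technical. Where protoapothecia are compared with mycelium, the way the RNA was prepared and the group cannot be told apart, and light and developmental state cannot be told apart between sexual and vegetative mycelium.

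Total counts ranged from 5583951 in protoapothecia B to 24803660 in protoapothecia C. Levels are in CPM, read counts scaled to a common library size with TMM factors. In protoapothecia B a level of 3 counts equals 0.642 CPM, and elsewhere it equals 0.112 to 0.202 CPM, and such floors cover counting error only. Group values are the mean ± SD over n = 3 protoapothecium libraries or n = 2 libraries of a mycelium group. Genes described as lectins, a family with fruiting-body members in other ascomycetes, summed to 15919 to 23716 CPM in protoapothecia, 5533 to 6973 in sexual mycelium and 1639 to 1654 in vegetative mycelium. Of these 8 lectins 3 were higher and 1 was lower in protoapothecia against sexual mycelium, where 26.7% of all genes tested were higher and 34.5% lower by edgeR's test. Against vegetative mycelium 3 lectins were higher and 2 lower in protoapothecia (36.4% and 32.8% of all genes), and 2 were higher and 0 lower in sexual mycelium (20.6% and 9.00%). The 4 mating-type and pheromone receptor models summed to 228 to 375 CPM in protoapothecia, 231 to 326 in sexual mycelium and 160 to 161 in vegetative mycelium. In the same 3 comparisons 1, 3 and 3 of them were higher and 0 lower. The 5 conidiation or conidial pigment models summed to 12.4 to 110.8, 41.0 to 86.6 and 573 to 781 CPM in the same order. Of these, 0 were higher and 4 lower in protoapothecia against sexual mycelium, 2 were higher and 2 lower in protoapothecia against vegetative mycelium, and 2 were higher and 1 lower in sexual against vegetative mycelium. Of the latter 5 models, 1 had 0 reads in vegetative mycelium and 1 had 0 reads in the vegetative pool, and every other marker model had reads in each group. Their part in the results was not tested.

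Psi-producing oxygenase A, PCON_11932, was most abundant in the vegetative mycelium grown in darkness and least abundant in the sexual mycelium grown in light. Its gene lies on scaffold 653 from 72635 to 76431, minus strand, with 5 exons. The 5′ UTR of its model has 76 bases, the 3′ UTR 130 bases and the protein 1101 residues, and the deposited table lists both an An_peroxidase and a p450 Pfam domain. The 2 vegetative mycelium libraries had 2601 and 1688 CPM, from 38590 and 26167 reads. Those of the vegetative pool had 301.4 and 329.5 CPM. Protoapothecia A, B and C had 99.1, 171.1 and 68.5 CPM. Sexual mycelium 1 and 2 had 42.2 and 38.1 CPM, from 879 and 1016 reads. No group overlapped another, so the order of levels was vegetative mycelium, vegetative pool, protoapothecia, sexual mycelium. How many other genes separate in this way is not given here. In bulk samples, fewer cells that express a gene and less RNA per cell cannot be told apart.

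Group levels of PCON_11932 were 2144 ± 645 CPM in vegetative mycelium, 315.5 ± 19.8 in the pool, 112.9 ± 52.7 in protoapothecia and 40.1 ± 2.88 in sexual mycelium. Vegetative mycelium was 53.4-fold above sexual mycelium, a log2 difference of −5.74 for sexual against vegetative (SE 0.487). This was the 24th largest fall among the 11787 genes tested in that comparison. Dark surface mycelium was also 6.80-fold above the pool, which mixed submerged and surface cultures (log2 difference 2.77, SE 0.424). The sexual mycelium lay below the pool by a log2 difference of −2.97 (SE 0.429). Protoapothecia lay between the mycelia. They were 2.81-fold above sexual mycelium (log2 difference 1.49, SE 0.384), 19.0-fold below vegetative mycelium (−4.25, SE 0.385) and 2.79-fold below the pool (−1.49, SE 0.359). In the same order these were the 2433rd largest rise and the 646th and 3167th largest falls in their comparisons. These comparisons share groups and are not independent of each other. In the authors' deposited table PCON_11932 is called lower in sexual than in vegetative mycelium, lower in protoapothecia than in vegetative mycelium, and not changed between protoapothecia and sexual mycelium, under both the plain and the stringent call. Between protoapothecia and the pool, the authors' deposited table gives it as lower under the plain call and as not changed under the stringent one.

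Oleic acid lipoxygenase, PCON_08404, had its high levels in protoapothecia alone among the 4 groups. The gene is on scaffold 382, 22009 to 23655, plus strand, with 3 exons, no annotated 5′ UTR, a 3′ UTR of 144 bases and a protein of 464 residues with a Lipoxygenase Pfam domain. Protoapothecia A, B and C had 38.0, 165.5 and 154.2 CPM, from 764, 774 and 3119 reads. The sexual mycelium libraries had 2.73 and 2.51 CPM, from 57 and 67 reads. The vegetative mycelium libraries had 1.68 and 3.87 CPM and those of the pool 2.55 and 2.03 CPM, from 25 to 60 reads each. All protoapothecium libraries lay above all mycelium libraries, while the 3 mycelium groups overlapped each other. The share of all genes with such a separation is not given here. Protoapothecia A was well below B and C.

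Group levels of PCON_08404 were 119.3 ± 70.6 CPM in protoapothecia, 2.62 ± 0.157 in sexual mycelium, 2.78 ± 1.55 in vegetative mycelium and 2.29 ± 0.371 in the pool. Protoapothecia were 45.5-fold above sexual mycelium (log2 difference 5.50, SE 0.719), the 50th largest rise in that comparison. They were 42.9-fold above vegetative mycelium (5.41, SE 0.721) and 52.1-fold above the pool (5.69, SE 0.731). These were the 1177th and 978th largest rises in their comparisons. Between sexual and vegetative mycelium the log2 difference was −0.09 with an SE of 0.662, so a change of either sign lay within the error. In the authors' deposited table the lipoxygenase is called higher in protoapothecia than in each mycelium group, and not changed among the mycelia, under both calls.

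**Figure D1:**
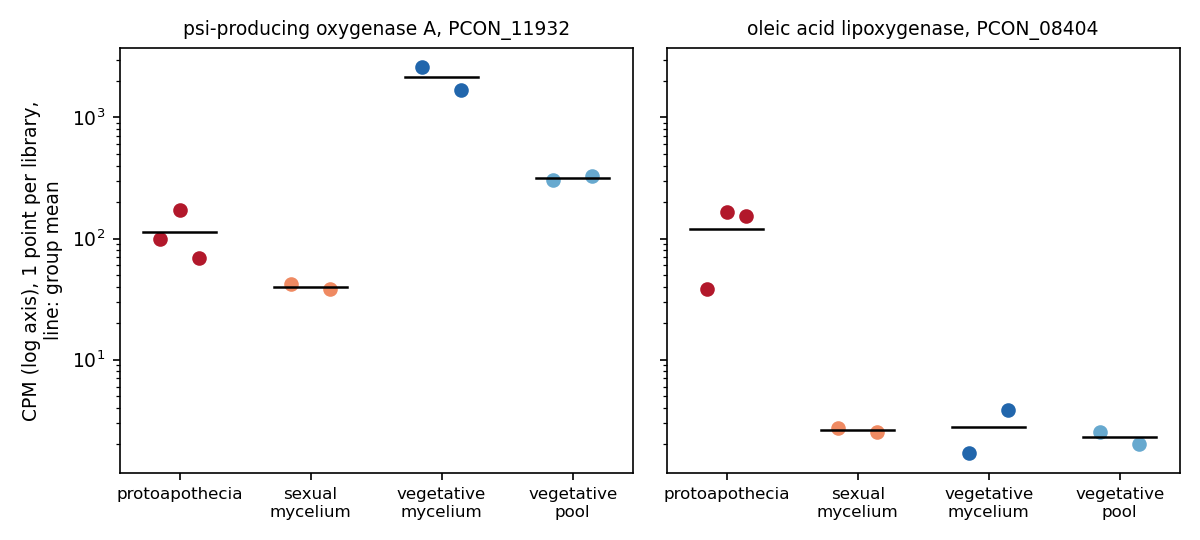
CPM of PCON_11932 (left) and PCON_08404 (right) in each of the 9 libraries on a log axis, with a line at each group mean. The vegetative mycelium libraries stand highest for the psi-producing oxygenase, at 2601 and 1688 CPM, and the protoapothecium libraries stand highest for the lipoxygenase, at 38.0 to 165.5 CPM.

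Levels of the pair were set side by side per kb of mRNA model, 3509 bases for PCON_11932 and 1536 for PCON_08404. The level of PCON_11932 divided by that of PCON_08404 was 676 and 191 in the vegetative mycelium libraries, 51.7 and 71.1 in the pool, and 6.75 and 6.64 in sexual mycelium. It was 1.14, 0.452 and 0.195 in protoapothecia A, B and C. Per kb, psi-producing oxygenase A was thus higher in all 6 mycelium libraries and in protoapothecia A, and the lipoxygenase in protoapothecia B and C. In plain CPM the order in protoapothecia B was the other way, at 171.1 for PCON_11932 and 165.5 for PCON_08404. Division by length assumes reads spread evenly along each model, which was not tested. Ranked per kb among all models, PCON_11932 stood 153rd in vegetative mycelium and 6578th in sexual mycelium, and PCON_08404 stood 1927th in protoapothecia and between 8477th and 10136th in the mycelium groups.

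**Figure D2:**
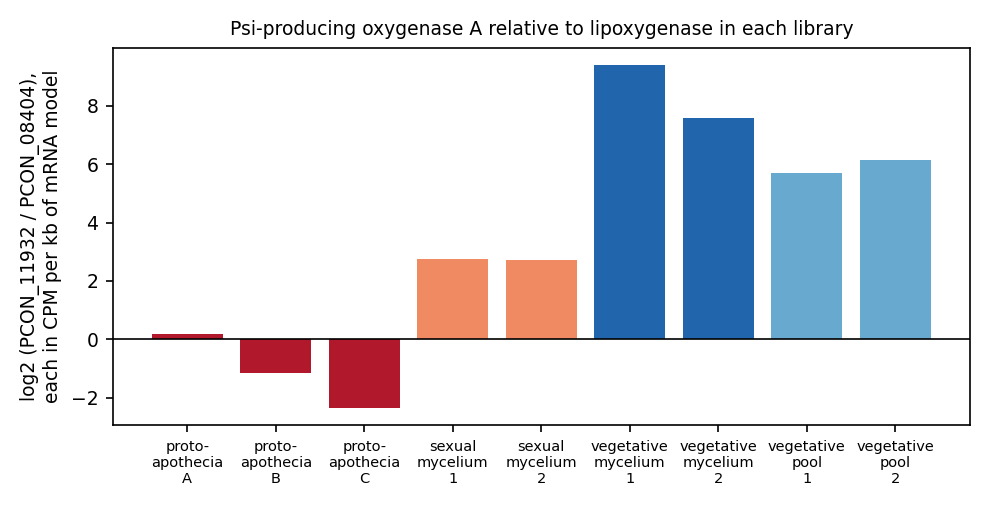
Log2 of the level of PCON_11932 divided by that of PCON_08404, each in CPM per kb of mRNA model, as 1 bar per library. Bars are above 0 in all 6 mycelium libraries, highest at 9.40 in vegetative mycelium 1, and below 0 in protoapothecia B and C, at −1.14 and −2.36.

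The deposited table describes 7 other models as psi-producing oxygenases, a linoleate 10R-lipoxygenase or a lipoxygenase. Of these, 2 are as long as PCON_11932 and were not used to choose it. PCON_10323 (scaffold 510, 103331 to 107590, plus strand, 1142 residues) has an An_peroxidase domain and no listed p450 domain. PCON_13884 (scaffold 900, 62138 to 65899, plus strand, 1022 residues) has both domains. Neither overlaps another model. How reads that match more than 1 of these similar genes were counted is not given in the sources used here.

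PCON_10323 was abundant in every library and stood higher in protoapothecia and sexual mycelium than in the vegetative groups. Protoapothecia A, B and C had 964.9, 845.9 and 839.9 CPM, and sexual mycelium 1 and 2 had 858.2 and 677.6 CPM. Vegetative mycelium had 267.5 and 343.8 CPM, and the pool 162.9 and 241.1 CPM. Protoapothecia and sexual mycelium overlapped (log2 difference 0.20, SE 0.247, edgeR adjusted p = 0.499). Against vegetative mycelium it rose in protoapothecia (1.53, SE 0.260, edgeR adjusted p = 0.000607) and in sexual mycelium (1.33, SE 0.274, edgeR adjusted p = 0.00546). The latter call was lost without vegetative mycelium 1 (1.15, edgeR adjusted p = 0.0702).

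PCON_13884 had 137.5, 118.9 and 118.4 CPM in protoapothecia A, B and C, 275.9 and 138.4 in sexual mycelium, 69.9 and 84.8 in vegetative mycelium, and 27.0 and 24.9 in the pool. Sexual mycelium 1 stood well above all other libraries. The rise in sexual against vegetative mycelium (log2 difference 1.42, SE 0.315, edgeR adjusted p = 0.00781) was lost without sexual mycelium 1 (0.84, edgeR adjusted p = 0.0684) and without vegetative mycelium 1 (1.27, edgeR adjusted p = 0.0767). Protoapothecia against sexual mycelium gave −0.73 (SE 0.279, edgeR adjusted p = 0.0456). That call was lost with RLE scaling (−0.55, edgeR adjusted p = 0.120), with DESeq2 (−0.56, DESeq2 adjusted p = 0.137) and without any 1 library other than sexual mycelium 2 (edgeR adjusted p = 0.0654 to 0.672), the estimate being −0.15 without sexual mycelium 1. Protoapothecia against vegetative mycelium gave 0.69 (edgeR adjusted p = 0.0562), which passed with RLE scaling (0.82, edgeR adjusted p = 0.0323) and with DESeq2 (0.81, DESeq2 adjusted p = 0.0232).

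The levels of the 3 long psi-producing oxygenase models thus differed in order between groups. Per kb of mRNA model, PCON_11932 made up 89.5% and 81.4% of their sum in the vegetative mycelium libraries and 64.0% and 58.2% in the pool. It made up 3.93% and 4.94% in sexual mycelium and 9.16%, 16.6% and 7.42% in protoapothecia A, B and C. In sexual mycelium PCON_10323 stood highest per kb, at 191.8 ± 31.9 CPM per kb, with PCON_13884 at 59.3 ± 27.8 and PCON_11932 at 11.4 ± 0.821. In vegetative mycelium PCON_11932 stood at 611.1 ± 184 CPM per kb, PCON_10323 at 76.3 ± 13.5 and PCON_13884 at 22.2 ± 3.01. Between sexual and vegetative mycelium PCON_11932 had the opposite sign from PCON_10323 and PCON_13884, and it was chosen with that value known.

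**Figure D3:**
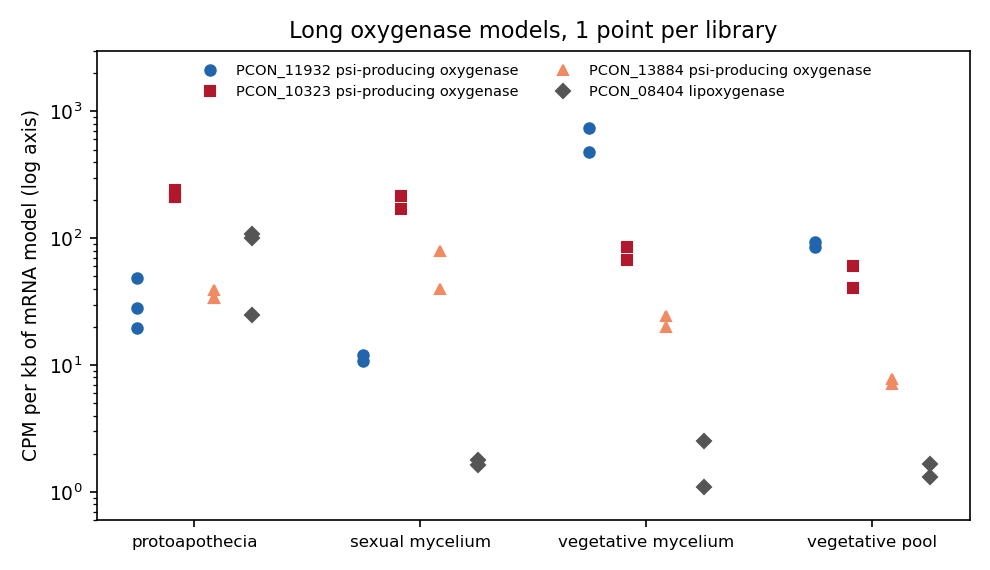
Levels in CPM per kb of mRNA model on a log axis, 1 point per library, for the 3 long psi-producing oxygenase models and the lipoxygenase PCON_08404 in the 4 groups. PCON_11932 leads in vegetative mycelium, at 611.1 ± 184 CPM per kb, and PCON_10323 leads in sexual mycelium, at 191.8 ± 31.9.

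Short models described as oxygenases lie in a run of 4 on scaffold 298, plus strand, and whether they are parts of 1 gene was not tested. PCON_07010 (9069 to 9518), PCON_07011 (9554 to 10236) and PCON_07012 (10241 to 10504) were too low to be tested. They had at most 7 reads over any group. PCON_07013 (11380 to 12417, 313 residues, no Pfam domain listed) had 12.3, 19.2 and 18.1 CPM in protoapothecia A, B and C, 1.63 and 1.24 in sexual mycelium, 0.270 and 0.194 in vegetative mycelium, and 0.236 and 0.327 in the pool. Each vegetative library had 3 to 5 reads, so those levels are near the floor. PCON_07013 rose in protoapothecia against sexual mycelium (log2 difference 3.52, SE 0.448, edgeR adjusted p = 0.00014) and against vegetative mycelium (6.12, SE 0.549, edgeR adjusted p = 1.21e-05). It also rose in sexual against vegetative mycelium (2.59, edgeR adjusted p = 0.00544), a call lost without vegetative mycelium 2 (2.38, edgeR adjusted p = 0.0584).

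The remaining relative, PCON_08403, is described as a lipoxygenase and lies 107 bases before PCON_08404 on the same strand (scaffold 382, 21311 to 21901, 174 residues, no Pfam domain listed). It had 0, 1 and 4 reads in protoapothecia A, B and C, where PCON_08404 had 764, 774 and 3119. It had 10 and 13 reads in sexual mycelium, 19 and 19 in vegetative mycelium, and 4 and 8 in the pool. Per kb its level was 0 to 0.0038 of that of PCON_08404 in protoapothecia and 0.218 to 2.24 of it in the mycelium libraries. Whether PCON_08403 and PCON_08404 are parts of 1 gene was not tested, so these values describe the models as annotated. PCON_08403 fell in protoapothecia against vegetative mycelium (log2 difference −3.37, SE 0.901, edgeR adjusted p = 0.00818) and did not pass against sexual mycelium (−2.01, SE 0.933, edgeR adjusted p = 0.0886). Where reads lie along a transcript is not in the count table, so the part of the linear amplification of protoapothecium RNA in this ratio was not tested.

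The neighbours of PCON_11932 on scaffold 653 were picked by position, with earlier results of these data known, and 5 of the 6 nearest models had enough reads. Between sexual and vegetative mycelium 4 of these 5 were lower in sexual mycelium and 1 was higher, where 9.00% of all genes tested were lower and 20.6% higher. PCON_11929, described as the ubiquitin ligase RNF216, stood at 5.35 ± 1.73 CPM in sexual and 315.7 ± 140 CPM in vegetative mycelium (log2 difference −5.89, SE 0.687, edgeR adjusted p = 0.000287). The ankyrin repeat protein PCON_11930 stood at 10.6 ± 0.724 and 423.7 ± 177 CPM (−5.32, SE 0.458, edgeR adjusted p = 7e-05). PCON_11933, similar to a hypothetical protein and 3241 bases away on the other strand, stood at 13.9 ± 3.28 and 302.7 ± 54.7 CPM (−4.44, SE 0.756, edgeR adjusted p = 0.002). PCON_11931, of unknown function, was near the floor at 0.0989 ± 0.0721 and 1.02 ± 0.108 CPM (edgeR adjusted p = 0.0442). Its call was lost without protoapothecia A (edgeR adjusted p = 0.0587), without sexual mycelium 1 or 2 (0.234 and 0.130) and without vegetative mycelium 1 or 2 (0.104 and 0.134). The GPI anchored protein PCON_11934, farther away, rose from 20.7 ± 8.42 CPM in vegetative to 83.8 ± 31.3 in sexual mycelium (2.02, SE 0.362, edgeR adjusted p = 0.00262).

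Between protoapothecia and sexual mycelium all 5 tested neighbours of PCON_11932 were higher in protoapothecia, where 26.7% of all genes tested were higher and 34.5% lower. Protoapothecia had 292 ± 87.9 CPM of PCON_11930 (log2 difference 4.78, SE 0.437, edgeR adjusted p = 2.19e-05), 308.1 ± 179 of PCON_11933 (4.46, SE 0.737, edgeR adjusted p = 0.000683), 474.3 ± 83.9 of PCON_11934 (2.50, SE 0.349, edgeR adjusted p = 0.000253) and 32.1 ± 21.6 of PCON_11929 (2.56, SE 0.574, edgeR adjusted p = 0.00386). The call for PCON_11931 was lost without sexual mycelium 1 (edgeR adjusted p = 0.131) and without sexual mycelium 2 (0.0675). Between protoapothecia and vegetative mycelium 1 of the 5 was higher, PCON_11934, and 1 lower, PCON_11929, with 36.4% and 32.8% of all genes tested called higher and lower. PCON_11930 and PCON_11933 overlapped between protoapothecia and vegetative mycelium (edgeR adjusted p = 0.186 and 0.976). No test of the run of neighbours as a whole was made, and these comparisons share groups.

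Around PCON_08404 on scaffold 382 the 6 nearest models went different ways. Between protoapothecia and sexual mycelium 3 of 6 were higher, 1 was lower and 2 did not pass. Over all genes tested 26.7% were higher and 34.5% lower there. PCON_08407, described as the acyl-CoA dehydrogenase AidB, had 542.7 ± 287 CPM in protoapothecia and 142.2 ± 11.0 in sexual mycelium (log2 difference 1.93, SE 0.386, edgeR adjusted p = 0.00206). PCON_08406, similar to a hypothetical truffle protein, had 69.3 ± 21.8 and 10.8 ± 1.21 CPM (2.69, SE 0.321, edgeR adjusted p = 0.000101). PCON_08401 had 9.08 ± 7.32 and 0.486 ± 0.213 CPM (4.19, SE 0.799, edgeR adjusted p = 0.00156). PCON_08402, of unknown function, was near the floor in protoapothecia, at 0.0660 ± 0.0755 against 0.694 ± 0.239 CPM. Its fall (−2.90, edgeR adjusted p = 0.00806) was lost without sexual mycelium 1 (−2.51). PCON_08405, whose gene starts 2694 bases from the start of the lipoxygenase, had 4.34 ± 1.43 and 5.90 ± 2.72 CPM (−0.42, edgeR adjusted p = 0.365). Between sexual and vegetative mycelium, where the lipoxygenase itself showed no difference beyond its error, PCON_08401 and PCON_08405 were lower in sexual mycelium (−5.82 and −2.58, edgeR adjusted p = 0.00104 and 0.00176) and the other 4 did not pass. In that comparison 20.6% of all genes tested were higher and 9.00% lower. Between protoapothecia and vegetative mycelium 36.4% of all genes tested were higher and 32.8% lower. Of the neighbours, PCON_08406 and PCON_08407 were higher in protoapothecia (2.04 and 1.68, edgeR adjusted p = 0.000315 and 0.0034) and the other 4 lower. Among these 4, PCON_08402 and PCON_08403 were near the floor in protoapothecia. The call for PCON_08401 (−1.63, edgeR adjusted p = 0.0407) was lost with RLE scaling (0.0502) and without any 1 library other than protoapothecia C.

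**Figure D4:**
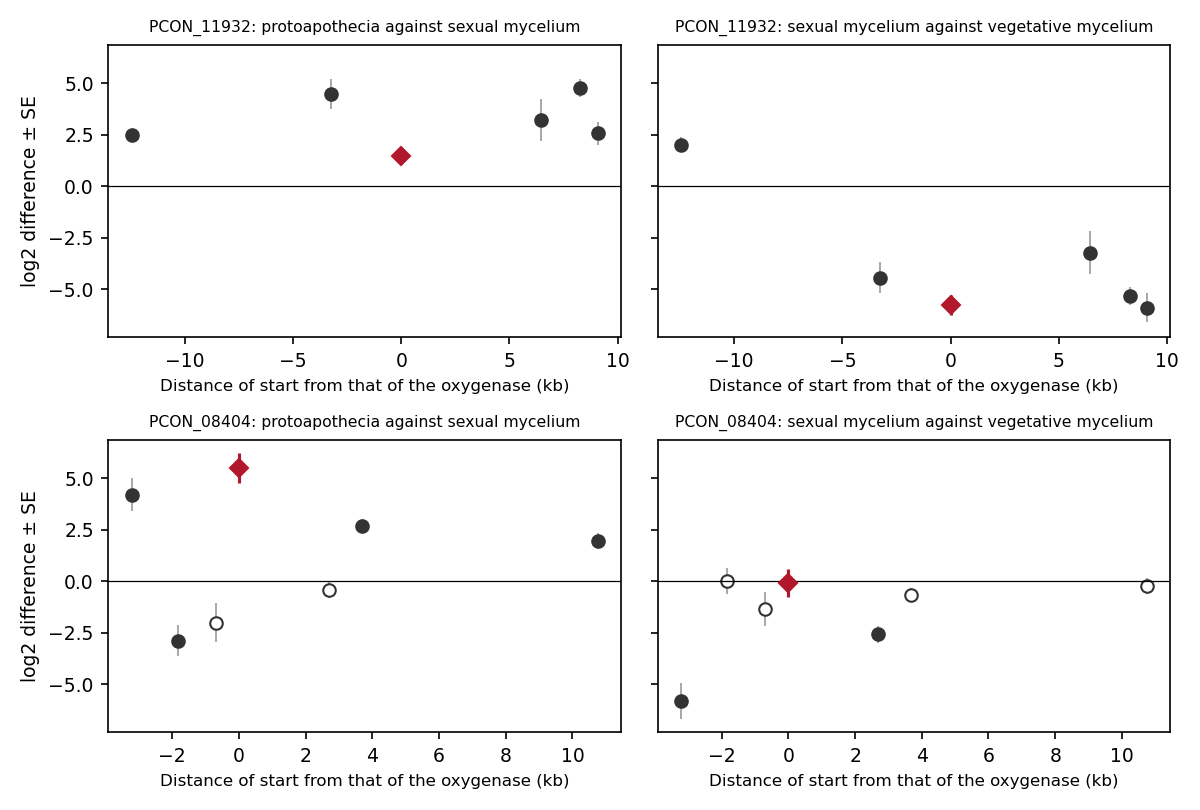
Log2 difference ± SE of each tested neighbour against the distance of its start from the start of the oxygenase in kb, for PCON_11932 (upper row) and PCON_08404 (lower row), in 2 comparisons. Filled circles passed the edgeR test, open circles did not, and the diamond at 0 is the oxygenase itself, which was not tested. Beside PCON_11932, 4 of 5 neighbours are below 0 between sexual and vegetative mycelium, and 5 of 5 are above 0 between protoapothecia and sexual mycelium.

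Genes with profiles most like each oxygenase were found by the root mean square (RMS) difference of log2 CPM, centred on each gene's own mean, over the 9 libraries. The genes searched were the 4907 with a described product, at least 10 CPM in their highest group and no overlap with another model. For PCON_11932 the closest was its scaffold neighbour PCON_11929 (RMS difference 0.654). It was followed by PCON_09692 and PCON_10048, both similar to predicted proteins of other fungi, PCON_02021, described by an mRNA 3′ end name, and the lactose permease PCON_05748, a sugar transporter (RMS differences 0.765 to 0.870). The permease stood at 356.5 ± 21.7 CPM in vegetative mycelium, 94.7 ± 11.8 in the pool, 49.6 ± 25.4 in protoapothecia and 17.9 ± 8.29 in sexual mycelium. This is the same order as the oxygenase. The genes named for both oxygenases were picked by likeness in these same libraries, so such shared orders follow from the pick.

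For PCON_08404 the closest profile was that of the putative transporter PCON_03563 (RMS difference 0.630), at 449.1 ± 128 CPM in protoapothecia and 13.2 to 16.9 CPM in the means of the mycelium groups. The others were the ankyrin repeat protein PCON_02518, microsomal glutathione S-transferase 3 PCON_01201, a membrane enzyme that conjugates glutathione and reduces lipid hydroperoxides in mammals, the sym1-like protein PCON_10039 and apoptosis-inducing factor 2 PCON_03663 (RMS differences 0.679 to 0.703). PCON_01201 stood at 1303 ± 327 CPM in protoapothecia and at 36.4 to 50.4 CPM in the means of the mycelium groups. The RMS difference between both oxygenases was 3.79, and 10389 of the 11785 other tested genes lay closer to PCON_11932 than PCON_08404 did. Both were chosen with their group differences known, so this distance is a description only. RMS differences also grow with the size of a gene's changes, and the share for other gene pairs is not given here. Of the 5 genes named for each oxygenase, 4 and 2 stayed among the closest 5 when group means were used, and 1 and 0 when profiles were divided by their own SD.

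A list of other genes around oxylipin metabolism held 89 models, of which 83 could be tested. It covers the supply of fatty acid precursors (desaturases, phospholipases, lipases, fatty acid synthesis and activation), the metabolism of oxidised lipids, and regulators of development and G protein signalling. The regulators were searched by names linked to oxylipins in Aspergillus. No model was described as velvet, veA, velB, vosA, laeA, brlA or nsdD. Whether the regulators kept act with oxylipins in Pyronema was not tested. Between protoapothecia and sexual mycelium 26 of 83 (31.3%) were higher and 23 (27.7%) lower by edgeR's quasi-likelihood test, close to the 26.7% and 34.5% of all genes tested. The median log2 difference of the list was 0.19 and that of all genes tested −0.14, which became 0.03 with RLE in place of TMM scaling. Without sexual mycelium 2 the number of higher genes fell to 17, as that over all genes fell from 3146 to 2279. Between protoapothecia and vegetative mycelium 28 were higher and 32 lower, against 36.4% and 32.8% of all genes, and the medians were 0.23 and 0.15. Between sexual and vegetative mycelium 16 (19.3%) were higher and 14 (16.9%) lower, against 20.6% and 9.00% of all genes, and the medians were −0.22 and 0.08. DESeq2 called 16 higher and 21 lower in that comparison, and 2543 higher and 1442 lower over all genes, against 2423 and 1061 by edgeR. Leaving out 1 library gave 8 to 16 list genes higher and 7 to 22 lower, with 1642 to 2737 and 542 to 1539 over all genes. There were 10 higher and 8 lower without sexual mycelium 1, 11 and 8 without sexual mycelium 2, 8 and 7 without vegetative mycelium 1, 8 and 8 without vegetative mycelium 2, and 16 and 22 without protoapothecia B.

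Of the 52 precursor supply genes, 15 were higher in protoapothecia against sexual mycelium, 14 were lower and 23 did not pass (28.8% and 26.9%, against 26.7% and 34.5% of all genes). Lipase 3 PCON_05011, which releases fatty acids from lipids, rose from 18.6 ± 0.453 to 148 ± 17 CPM (log2 difference 2.99, edgeR adjusted p = 7.97e-06). Calcium-independent phospholipase A2-gamma PCON_03771, which frees fatty acids from membranes, had 103.3 ± 60.2 CPM in protoapothecia, 1.32 ± 0.0990 in sexual mycelium and 2.08 ± 0.390 in vegetative mycelium. Its log2 differences were 6.29 and 5.63 in protoapothecia against sexual and vegetative mycelium (edgeR adjusted p = 1.96e-05 and 2.01e-05). Of the 6 tested models with that description it was the only 1 called higher against sexual mycelium. PCON_07412 and PCON_13711 share the description and were not tested. The following are named after their values were seen. PCON_11662 had 6.63 ± 2.0 CPM in protoapothecia and 145.9 ± 66.4 in sexual mycelium (−4.43, edgeR adjusted p = 0.000248), and PCON_09118 had 50.3 ± 4.65 and 130 ± 6.33 CPM (−1.37, edgeR adjusted p = 0.000168). PCON_08085 was lower too but near the floor in protoapothecia, at 0.0996 ± 0.172 against 1.54 ± 0.149 CPM (−3.52, edgeR adjusted p = 0.00625). PCON_06599 and PCON_13735 did not pass (edgeR adjusted p = 0.432 and 0.0941). Among other enzymes of the list, the Δ12 fatty acid desaturase PCON_06932, an enzyme that turns oleic into linoleic acid, fell from 207.8 ± 49.2 CPM in sexual mycelium to 17.2 ± 4.48 in protoapothecia (−3.58, edgeR adjusted p = 9.9e-06). The putative lipase PCON_14222 fell from 50.7 ± 4.01 to 5.91 ± 1.10 CPM (−3.11, edgeR adjusted p = 1.02e-05). The other model described as a Δ12 desaturase, PCON_04961, named after its values were seen, had 197.4 ± 55.7 CPM in protoapothecia, 102.5 ± 1.10 in sexual and 265.6 ± 4.21 in vegetative mycelium. It rose in protoapothecia against sexual mycelium (0.94, edgeR adjusted p = 0.0138). The call was lost without sexual mycelium 1 (0.93, edgeR adjusted p = 0.0771) and without sexual mycelium 2 (0.96, edgeR adjusted p = 0.0724), with the difference nearly the same.

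Between sexual and vegetative mycelium 10 of 52 precursor supply genes were higher (19.2%) and 8 lower (15.4%), against 20.6% and 9.00% of all genes. PCON_11662, described as another phospholipase A2-gamma, had 145.9 ± 66.4 CPM in sexual and 0.487 ± 0.498 in vegetative mycelium (log2 difference 8.19, SE 0.906, edgeR adjusted p = 0.000223). The Δ12 desaturase PCON_06932 was higher in sexual than in vegetative mycelium (1.81, SE 0.304, edgeR adjusted p = 0.00189), opposite in sign to the other Δ12 desaturase PCON_04961 (−1.37, SE 0.295, edgeR adjusted p = 0.00666). Lipase 3 PCON_05314 fell from 54.4 ± 11.0 CPM in vegetative to 8.09 ± 2.55 in sexual mycelium (−2.75, SE 0.319, edgeR adjusted p = 0.000283). The acyl-CoA desaturase PCON_03679, which makes oleic-type fatty acids, fell from 426.6 ± 16.8 CPM in vegetative to 81.6 ± 13.7 in sexual mycelium (−2.39, SE 0.290, edgeR adjusted p = 0.000352). Between protoapothecia and vegetative mycelium 17 of 52 were higher (32.7%) and 22 lower (42.3%), against 36.4% and 32.8% of all genes.

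Genes of oxidised lipid metabolism had 5 higher (29.4%) and 6 lower (35.3%) of 17 between protoapothecia and sexual mycelium, against 26.7% and 34.5% of all genes. Between protoapothecia and vegetative mycelium 9 were higher (52.9%) and 5 lower (29.4%), against 36.4% and 32.8%. In sexual against vegetative mycelium 6 were higher (35.3%) and 3 lower (17.6%), against 20.6% and 9.00%. These counts include 4 of the relatives described above. A putative epoxide hydrolase, PCON_08293, which opens epoxide rings, had 132.4 ± 5.73 CPM in protoapothecia, 24.7 ± 6.99 in sexual and 42.6 ± 1.59 in vegetative mycelium. It rose in protoapothecia against both (log2 differences 2.42 and 1.64, edgeR adjusted p = 4.21e-05 and 0.000245). The other model with that description, PCON_09329, went the other way, with 9.01 ± 3.85, 24.7 ± 1.10 and 48.2 ± 4.06 CPM in the same order (−1.44 and −2.40, edgeR adjusted p = 0.00416 and 0.000165). Epoxide hydrolase 2 PCON_04707 fell as well in protoapothecia against sexual mycelium, at 84.9 ± 29.1 against 235.2 ± 116 CPM (−1.47, edgeR adjusted p = 0.00539), a call lost without sexual mycelium 2 (−0.85, edgeR adjusted p = 0.0932). The other epoxide hydrolase 2 model, PCON_10619, did not pass (edgeR adjusted p = 0.281). PCON_01244, described as 15-hydroxyprostaglandin dehydrogenase, an enzyme that inactivates prostaglandins in mammals, had 90.6 ± 35.8, 7.65 ± 0.0416 and 32.5 ± 0.768 CPM in the same order. It rose in protoapothecia against sexual mycelium (3.57, edgeR adjusted p = 5.59e-05) and fell in sexual against vegetative mycelium (−2.09, edgeR adjusted p = 0.0027). Of the 3 other models with that description, PCON_13916 and PCON_10329 fell in protoapothecia against sexual mycelium (−3.03 and −1.51, edgeR adjusted p = 6.05e-05 and 0.0426) and PCON_05199 did not pass (−0.66, edgeR adjusted p = 0.422). PCON_13916 and PCON_05199 each overlap 1 other model and were named after their values were seen. The call for PCON_10329 was lost with RLE scaling (edgeR adjusted p = 0.0597), with DESeq2 (DESeq2 adjusted p = 0.0710) and without any 1 of 5 libraries (edgeR adjusted p = 0.0543 to 0.380), the estimate being −0.83 without sexual mycelium 1. The leukotriene A-4 hydrolase homolog PCON_10698 fell to 61.4 ± 3.66 CPM in protoapothecia from 149 ± 18.3 in sexual mycelium (−1.28, edgeR adjusted p = 0.000673).

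Among regulators 6 of 14 were higher (42.9%) and 3 lower (21.4%) between protoapothecia and sexual mycelium, against 26.7% and 34.5% of all genes. Between protoapothecia and vegetative mycelium 2 were higher (14.3%) and 5 lower (35.7%), against 36.4% and 32.8%. In sexual against vegetative mycelium 0 were higher and 3 lower (21.4%), against 20.6% and 9.00%. The G protein-coupled receptor GPR1 PCON_06938, a nutrient receptor in yeast, fell to 3.94 ± 1.48 CPM in protoapothecia from 47.7 ± 0.235 in sexual mycelium (log2 difference −3.66, edgeR adjusted p = 1.27e-05). The regulator wetA PCON_02676, which in Aspergillus acts in spore maturation, had 1202 ± 46.4 CPM in protoapothecia, 499.5 ± 37.8 in vegetative and 64.2 ± 3.46 in sexual mycelium. Its fall in sexual against vegetative mycelium was −2.96 (SE 0.263, edgeR adjusted p = 7.8e-05).

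**Figure D5:**
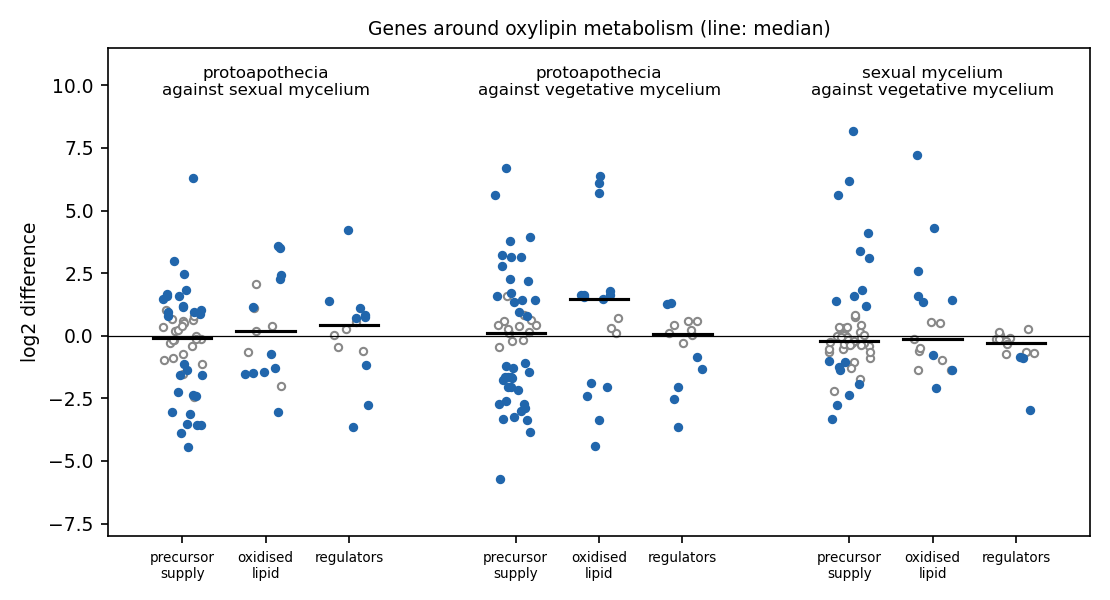
Log2 difference of each tested gene of the list in 3 comparisons, by group of the list, with a line at each median. Filled points passed the edgeR test and open points did not. Filled points lie on both sides of 0 in each group of the list except the regulators in sexual against vegetative mycelium, where 0 were higher and 3 lower.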

How the data were processed

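The authors deposited 1 table of raw read counts per gene model for 9 libraries, per the file headers, with no normalization, together with their own calls as a score of −1, 0 or 1 per comparison, per the file headers. Base calling used CASAVA 1.8.2, and a version is not given for DESeq, which is also named, per the submitters' processing notes. For the aligner, counting tool, strand setting and genome build: not given in the sources used here. The RefSeq table (assembly Pcon_v1) lists 13367 of the 13369 locus tags. Coordinates, Pfam names and lengths are those of the deposited table. There were 0 columns of values outside the 9 libraries.

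The members and gene lists were chosen with earlier results of these data known. Counts were tested in R 4.3.3 with edgeR 4.0.16: filterByExpr (minimum count 10, minimum total 15) left 11787 genes, TMM scaling, 4 groups in 1 robust quasi-likelihood fit with 5 residual degrees of freedom, two-sided, Benjamini-Hochberg adjustment over all genes, threshold 0.05. "EdgeR adjusted p" means this test. SE is the absolute log2 difference divided by the square root of the F statistic of this test. For the members it is given as a description. DESeq2 1.42.0, RLE scaling, no filter, each library left out and a replicate block were alternatives. Same-group libraries differed beyond sampling noise (chi-square per degree of freedom 23.8 to 163). The fit was also run on simulated counts with few changed genes and the same spread for every gene. These data differ in both, so that run checks the code and not the error rate here.

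Genes named are the members, the other models described as fatty acid oxygenases, 3 neighbours on each side, the 5 closest profiles, and from each group of the list at most 4 per direction and comparison by smallest adjusted p, with CPM that did not overlap between groups and no overlapping model.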

Additional observations from a re-analysis of the deposited data

How the results depend on the processing

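The log2 differences of PCON_11932 kept their sign in all alternatives, from −6.02 to −5.41 for sexual against vegetative mycelium and from 1.08 to 1.78 for protoapothecia against sexual mycelium. Those of PCON_08404 in protoapothecia stayed between 4.96 and 6.14. Among the mycelia its small differences changed sign without vegetative mycelium 2, to 0.63 for sexual against vegetative mycelium and −0.45 for vegetative mycelium against the pool. All these moved by less than the spread between replicates. Leaving out 1 library can hardly move a value by more than that spread, so this is no measure of robustness. Of the other named genes' alternative values, 1429 kept their side of the threshold, 63 lost it, 28 passed newly and 0 reversed.

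Leaving out 1 library gave 17 to 27 list genes higher in protoapothecia than in sexual mycelium, the 17 without sexual mycelium 2. For sexual against vegetative mycelium it gave 8 to 16 list genes higher and 7 to 22 lower, and 542 to 1539 of all genes lower. The higher count was 10 without sexual mycelium 1 and 8 without vegetative mycelium 1 or 2. The lower count was 22 without protoapothecia B, 8 without sexual mycelium 1 or 2, 7 without vegetative mycelium 1 and 8 without vegetative mycelium 2. The count over all genes was 542 and 583 without sexual mycelium 1 and 2 and 631 and 615 without vegetative mycelium 1 and 2. The cause of these moves was not tested. Leaving out a mycelium library leaves an arm of 1, assumed to vary like the other groups.

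Replicate numbers do not pair the mycelium libraries in the labels, and deviations of same-numbered libraries had r from −0.157 to 0.119 over genes. In the 6 mycelium libraries alone, the fit with the replicate block called 26 list genes and 1899 of all genes lower in sexual mycelium, and the fit without it 27 and 1950. With the replicate block the calls for PCON_11931 (−3.20, edgeR adjusted p = 0.0790) and PCON_08293 (−0.78, edgeR adjusted p = 0.0510) in that comparison were lost. In both of these fits, with and without the block, PCON_05199, PCON_08085, PCON_09329 and PCON_10698 newly passed. With all 9 libraries PCON_08293 had a log2 difference of −0.79 in that comparison (edgeR adjusted p = 0.0413). That call was also lost without protoapothecia A (−0.78), sexual mycelium 1 (−0.52), vegetative mycelium 1 or 2 (−0.76 and −0.82) and either pool library (−0.79 each).

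The depth of protoapothecia B limits statements on genes below 0.642 CPM there.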
